A study of Mus musculus with 16 samples.

Results

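The comparison of mice given both treatments with mice given vehicle asks what remains of an estrogen-induced liver disease while a drug candidate is on board. Livers came from mice labelled Humanized PXR-CAR-CYP3A4/3A7, a label that names human PXR and CAR, receptors for foreign compounds, and human CYP3A enzymes, and every group has this genotype. The 4 EM libraries are from mice that received ethinylestradiol (EE), a synthetic estrogen used to provoke cholestasis, by subcutaneous injection at 10 mg/kg in propylene glycol for 7 days. From day 2 they also received MI763F, a compound known by its code name, by gavage at 2.5 mg/kg for 6 days. The 4 CV libraries are from mice given propylene glycol. Both groups together make 8 of the 16 libraries of the series. The 4 EV libraries (EE without MI763F) and the 4 CM libraries (MI763F at the same dose without EE) entered the model, which estimates 1 spread for all groups, and their values are given beside those of EM where they help. The sources used here give neither age nor sex of the mice, and the labels leave unsaid whether CV and EV mice were gavaged with the MI763F vehicle. EM therefore differs from CV by both agents, and the part of each cannot be told apart from this comparison alone. No label links a library to 1 animal, and p-values therefore reflect the spread between these samples, which may be technical.

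Bile acids are made from cholesterol in hepatocytes, starting with Cyp7a1 or, in the alternative pathway, with Cyp27a1 and Cyp7b1, and are then conjugated and pumped into bile. Estrogens such as EE impair bile flow in rodents, and cholestatic livers typically lower bile acid uptake and synthesis. CAR (Nr1i3) and PXR (Nr1i2) are nuclear receptors that switch on genes for drug and bile acid detoxification, of which Cyp2b10 is the classical CAR target in mouse liver.

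All 8 libraries showed hepatocyte RNA, with Alb at 53603 to 77124 CPM (counts relative to the scaled library total) in CV and 24223 to 40218 CPM in EM. The summed level of 10 hepatocyte markers was 91546 to 117833 CPM in CV and 38803 to 56855 CPM in EM. In whole liver, fewer cells of a type and less RNA per cell cannot be told apart. On the first principal component of all genes, which held 48.3% of the variance, the CV libraries lay between -67.9 and -57.0 and the EM libraries at 62.6, 46.7, 38.6 and 37.1 (replicates 1 to 4), against 66.7 to 75.4 for EV. EM replicate 1 thus stood nearest to EV. Its root mean square distance from the CV mean was 1.23 on the log2 scale, against 1.04 to 1.11 for the other EM libraries and 1.26 to 1.31 for EV. Counts were scaled for composition (TMM factors of 0.833 to 0.910 in CV and 1.10 to 1.13 in EM). With plain library totals the median of all genes would shift by 0.37 on the log2 scale, so that changes are relative to the bulk of the genes. Nothing in the labels gives a batch.

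**Figure D1:**
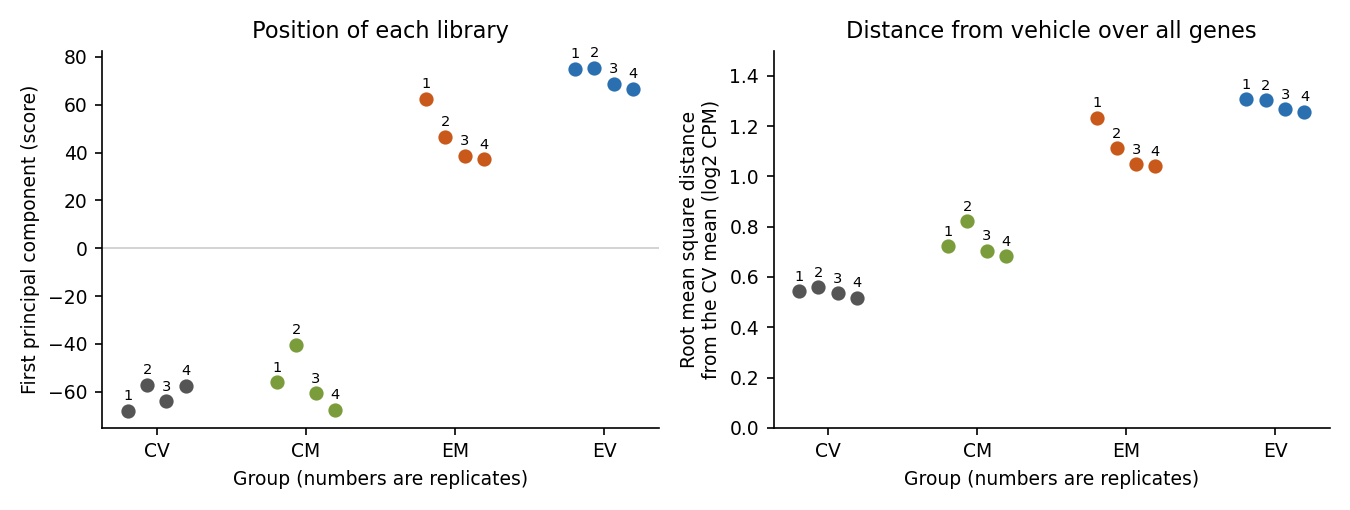
Score on the first principal component (left) and root mean square log2 distance from the CV mean (right) for each of the 16 libraries, with the replicate number above each point. The EM libraries lie with EV on the far side from CV, replicate 1 farthest at a distance of 1.23. The CV mean includes the CV libraries themselves.

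Of 12918 genes tested, 5251 (40.6%) differed between EM and CV at an adjusted p under 0.05 in the quasi-likelihood test of edgeR (Benjamini-Hochberg adjusted over all genes). The calls divided evenly, with 2668 genes higher in EM (20.7%) and 2583 lower (20%), but the larger changes were mostly rises. At least 2-fold, 1397 genes were higher (10.8%) and 669 lower (5.18%), and 112 were higher by 16-fold or more against 17 lower. With library totals, 5979 of 6979 calls (85.7%) were rises, against 50.8% here. List counts given below with library totals stand against 5979 rises and 1000 falls among all 12918 genes. A gene is counted here as at the vehicle level only where it was not called and the 95% interval of its fold change lay within 2-fold of CV. That held for 5837 genes (45.2%), and the remaining 1830 (14.2%) were undecided, neither called nor shown to be within 2-fold. The undecided genes had a median level of 2.61 CPM and a median standard error of 0.44 on the log2 scale, against 12.2 CPM and 0.15 for genes at the vehicle level. The CV and EM values of 4839 genes (37.5%) did not overlap.

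Most genes that EE alone had moved by at least 2-fold were still away from vehicle in EM. In EV against CV, 6513 genes (50.4%) were called, 2827 of them with a change of at least 2-fold. Of these 2827, 1978 (70%) were called in EM against CV in the same direction and still by at least 2-fold, and a further 20.1% in the same direction by less. Only 18 (0.637%) met the definition of the vehicle level, 261 (9.23%) were undecided, and 1, Cyp3a16, was called in the opposite direction. The comparisons share the 4 CV libraries, so this count is a description. Of 1667 genes raised by EE, 80.3% were still higher by 2-fold or more, and of 1160 lowered by EE, 55.1% were still lower by 2-fold or more and another 32.8% by less. The difference between these shares was not tested. Without EM replicate 1, 83.2% of 2814 such genes were called in EM, 35 (1.24%) were at the vehicle level and 438 were undecided.

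Most of the measured genes from cholesterol to bile acids were lower in EM, and 1 was higher. Of 17 synthesis and conjugation genes measured, 11 fell, 1 rose, 4 were at the vehicle level and 1 was undecided, with a median log2 fold change of -0.73 against -0.0024 over all genes. The gene that rose was Cyp7b1, the oxysterol hydroxylase of the alternative pathway, with 13.2, 19.4, 23.6 and 18.5 CPM in the CV libraries and 966, 839.6, 775 and 917 CPM in the EM libraries. All EM values lay far above all CV values and below the EV values of 1247 to 1487 CPM (log2 fold change EM over CV 5.55 ± 0.15 SE, adjusted p = 3.08e-11). Cyp8b1, the sterol 12-hydroxylase needed for cholic acid, gave 89.0, 76.5, 144 and 100.04 CPM in CV and 5.93, 2.13, 8.93 and 8.70 CPM in EM. It was low in every EM library (-3.98 ± 0.53, adjusted p = 0.000113), though less so than in EV (0.696 to 2.11 CPM). Slc27a5, which conjugates bile acids to coenzyme A (-1.76 ± 0.14), Cyp39a1, an oxysterol hydroxylase (-1.71 ± 0.32), and Baat, which joins bile acids to taurine or glycine (-0.73 ± 0.14), also fell.

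Cyp7a1, the rate-limiting enzyme, was the undecided gene. Its CV libraries held 76.7, 60.4, 46.3 and 66.2 CPM and its EM libraries 13.03, 12.7, 36.0 and 26.2 CPM. No EM library reached the lowest CV library, while EV lay at 1.16 to 14.1 CPM and CM, without EE, at 6.99 to 58.2 CPM. The log2 fold change of EM over CV, -1.50, had a 95% interval of -3.00 to -0.0029 and missed the threshold (adjusted p = 0.109). It passed when only the CV and EM libraries were fitted (adjusted p = 0.00895). Acot8, Acox2, Amacr and Hsd17b4, which act in peroxisomal shortening of the side chain, were the members at the vehicle level, with log2 fold changes between -0.11 (Amacr) and 0.29 (Acot8). With library totals 7 of the list's genes fell and 4 rose, the added rises being Acot8, Acox2 and Hsd17b4. Cyp27a1, the mitochondrial sterol hydroxylase (-0.43), lost its call with library totals, without CV replicate 2 (adjusted p = 0.0918) and without EM replicate 1 (adjusted p = 0.0855). Acot8 was called higher without CV replicate 2 (adjusted p = 0.0089).

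**Figure D2:**
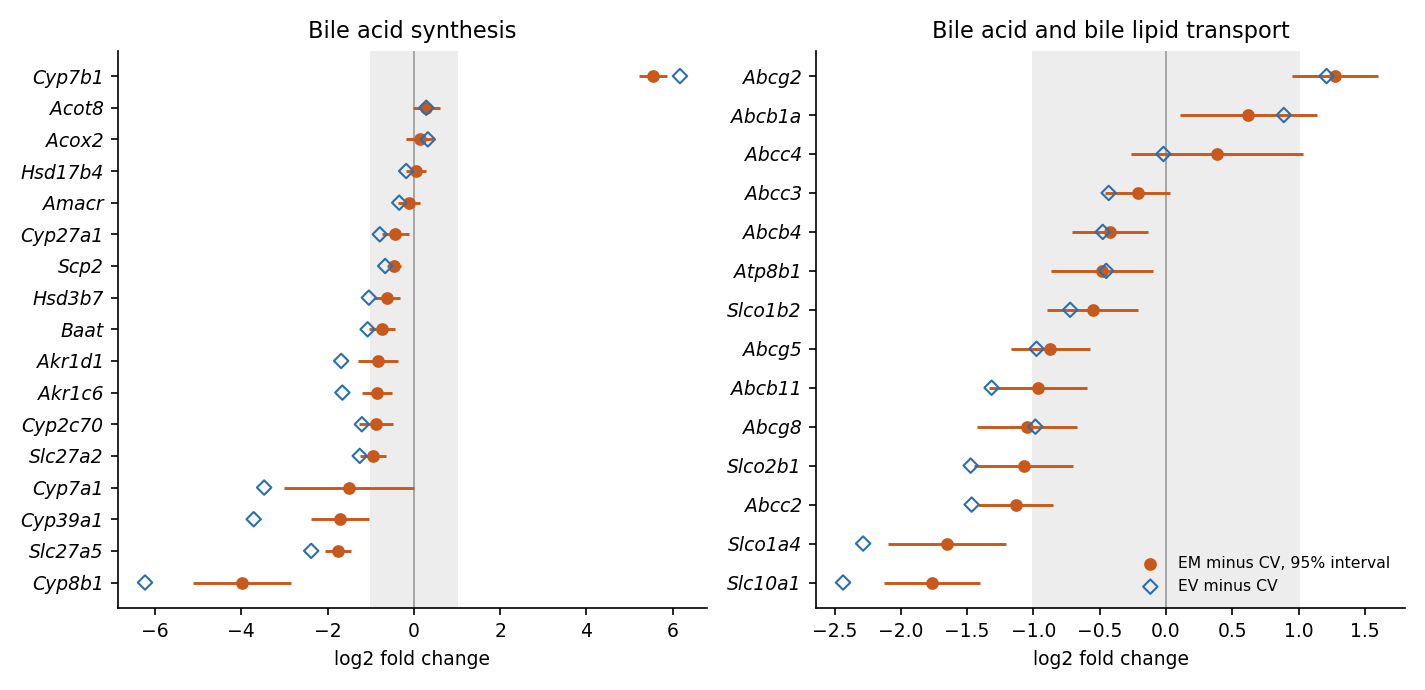
log2 fold change with its 95% interval for EM over CV (filled circles), and the log2 fold change for EV over CV (open diamonds), of the bile acid synthesis genes (left) and the transport genes (right). The grey band marks 2-fold either way; Cyp7b1 lies at 5.55 on the far right, Cyp8b1 at -3.98 on the far left, and most transporters lie below 0.

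Transport genes stayed low on both sides of the hepatocyte. Of 14 measured, 10 fell, 1 rose, 1 was at the vehicle level and 2 were undecided (median -0.71). Slc10a1, the sodium-dependent bile acid uptake carrier NTCP, held 597, 685, 693 and 702 CPM in CV and 141, 204, 239 and 204 CPM in EM, with the lowest EM value in replicate 1 and no overlap (-1.76 ± 0.17, adjusted p = 2.96e-06). The uptake carriers Slco1a4 (-1.65 ± 0.21) and Slco2b1 (-1.07 ± 0.17) fell as well. On the canalicular side, the bile salt export pump Abcb11 held 319, 423, 273 and 262 CPM in CV and 145, 151, 176 and 182 CPM in EM (-0.97 ± 0.17, adjusted p = 0.000441). The conjugate pump Abcc2 held 216, 213, 173 and 183 CPM in CV and 80.6, 68.6, 102 and 106 CPM in EM (-1.13 ± 0.13, adjusted p = 1.18e-05). Abcg5 and Abcg8, the paired subunits of the biliary cholesterol pump, fell together (-0.87 and -1.05). Abcg2, which exports sulfated and other conjugates, was the gene that rose, from 16.4 ± 4.599 to 39.7 ± 2.97 CPM (1.27 ± 0.15, adjusted p = 1.55e-05). Abcc3, a basolateral efflux pump, stayed within 2-fold of vehicle (-0.21, 95% interval -0.46 to 0.03), but was called lower without CV replicate 1 (adjusted p = 0.0413). With library totals 7 fell and 2 rose, with the calls of Abcb4, Atp8b1 and Slco1b2 lost. The call of the phospholipid pump Abcb4 (-0.42) was also lost without CV replicate 3 (adjusted p = 0.0692) and without EM replicate 1 (adjusted p = 0.0674), and that of the lipid flippase Atp8b1 (-0.48) in 7 of the 8 fits that each left out 1 library. Without EM replicate 1, 8 fell and 2 rose.

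Among nuclear receptors and their partners, 11 of 18 fell and the other 7 were at the vehicle level (median -0.51). The vehicle-level members included the bile acid receptor FXR (Nr1h4, -0.27, 95% interval -0.55 to 0.01), its target SHP (Nr0b2, -0.04, -0.83 to 0.75) and the estrogen receptor Esr1 (-0.10, -0.43 to 0.22). In EV, Nr1h4 had been called lower (-0.74, adjusted p = 0.000268). Klb (-1.50 ± 0.18) and Fgfr4 (-1.11 ± 0.18), which together receive the intestinal signal FGF15 that limits bile acid synthesis, both fell by more than 2-fold, at levels like those of EV (-1.46 and -1.13). Rxra, a partner of nuclear receptors such as FXR (-0.66 ± 0.08), the hepatocyte factors Cebpa (-1.41 ± 0.18) and Hnf4a (-0.52 ± 0.08), and the fatty acid receptor Ppara (-0.94 ± 0.21) also fell. With library totals 7 receptors fell and 1 rose, and the call of Hnf4a was lost.

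Mouse Nr1i3 fell (-1.02 ± 0.21, adjusted p = 0.00116) and mouse Nr1i2 was at the vehicle level (-0.20, 95% interval -0.40 to 0.0015). In animals with human counterparts, reads of these genes can be shared and both values are uncertain. For 3 entries the identifier has the human format, and no symbol was paired with it. ENSG00000143257 held 179.5, 245, 235 and 197 CPM in CV and 56.5, 98.0, 96.4 and 86.9 CPM in EM, and fell (-1.34 ± 0.21, adjusted p = 0.000143). ENSG00000144852 was at the vehicle level (-0.22, 95% interval -0.42 to -0.01), except that it was called lower without CV replicate 3 (-0.27, adjusted p = 0.0432). ENSG00000160868 was undecided, with 749.6, 2089, 1127 and 1002 CPM in CV and 1319, 2002, 2173 and 2106 CPM in EM. Its EM values lay within or just above the CV range (0.61, 95% interval -0.12 to 1.35, adjusted p = 0.175), whereas EV had been called lower (-1.23, adjusted p = 0.0086). This entry was called higher in EM with library totals (1.00, adjusted p = 0.0239) and without CV replicate 2 (0.99, adjusted p = 0.0282).

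The genes regulated by CAR and PXR did not move as 1 group. Of 35 measured, 19 were lower in EM than in vehicle, 3 higher, 7 at the vehicle level and 6 undecided (median -0.83, against -1.63 for EV over CV). Cyp2b10 held 249.9, 339, 339 and 274 CPM in CV and 294, 260.0, 256 and 324 CPM in EM. The groups overlapped, and the log2 fold change of -0.08 had a 95% interval of -0.61 to 0.45. Its level was 57.6, 112, 114 and 77.0 CPM in EV and 764 to 1691 CPM in CM, so that EM matched vehicle while lying between the EE and the MI763F groups. Cyp2c29, another abundant CAR-responsive P450, was likewise at the vehicle level (3824 ± 594 CPM in CV and 4810.2 ± 984 CPM in EM, SD, n = 4; 0.33, 95% interval -0.09 to 0.75), although library totals called it higher (0.71, adjusted p = 0.00659).

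Cyp2b9 and Cyp2b13, of the same gene cluster, fell in EM. Cyp2b9 held 259.5, 332, 414 and 351 CPM in CV and 8.06, 30.5, 34.8 and 15.7 CPM in EM (-3.93 ± 0.39, adjusted p = 9.48e-06). Cyp2b13 held 113, 207, 321 and 195 CPM in CV and 3.15, 8.84, 8.53 and 4.08 CPM in EM (-5.08 ± 0.46, adjusted p = 7e-06). Both were higher in every EM library than the EV means of 3.11 and 0.946 CPM, and far under every CV library. These genes resemble each other closely, so the division of reads between them is uncertain. The 250 bases before each start site (RefSeq, GRCm38.p6, plus strand of chromosome 7) were compared between the 3 genes. Those of Cyp2b9 and Cyp2b13 were identical at 248 of 250 positions (99.2%). Cyp2b10 matched each of them at 186 of 238 aligned positions (78.2%, with 24 gap columns). Capitals mark AGGTCA, the half-site to which many nuclear receptors bind, on either strand. It occurs 138 bases before the start of Cyp2b9 and of Cyp2b13, is not in the window of Cyp2b10, and is found in 11.1% of the 9446 promoters of tested genes in the table. AGTTCA and TATAAA, also searched on both strands, are in none of the 3 windows and in 8.97% and 6.83% of promoters. A match is a description of letters only, and a link between these sequences and the expression values was not tested.
Cyp2b9 (chr7:26173159-26173408): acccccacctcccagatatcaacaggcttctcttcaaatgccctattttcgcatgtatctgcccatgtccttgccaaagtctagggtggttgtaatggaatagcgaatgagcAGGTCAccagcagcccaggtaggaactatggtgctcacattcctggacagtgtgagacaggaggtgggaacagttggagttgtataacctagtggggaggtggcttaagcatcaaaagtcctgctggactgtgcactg
Cyp2b13 (chr7:26061245-26061494): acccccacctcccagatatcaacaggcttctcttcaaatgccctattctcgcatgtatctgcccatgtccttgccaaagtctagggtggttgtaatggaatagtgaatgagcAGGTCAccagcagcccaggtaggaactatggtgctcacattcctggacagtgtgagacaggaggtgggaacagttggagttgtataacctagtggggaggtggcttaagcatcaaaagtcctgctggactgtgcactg
Cyp2b10 (chr7:25897408-25897657): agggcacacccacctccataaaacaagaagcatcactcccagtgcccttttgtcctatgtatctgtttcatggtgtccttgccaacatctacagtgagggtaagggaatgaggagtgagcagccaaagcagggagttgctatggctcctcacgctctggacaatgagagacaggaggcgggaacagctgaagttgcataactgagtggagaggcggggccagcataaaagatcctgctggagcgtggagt

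Several detoxification enzymes of other families were lower than with vehicle, while Ugt2b35 (0.34), Ugt2b36 (-0.01), Gstm2 (0.12), Aldh1a1 (0.06) and Aldh1a7 (0.37) were at the vehicle level. Of these, all but Aldh1a1 were called higher with library totals, and Aldh1a7 also without CV replicate 4 (adjusted p = 0.0268). Ugt1a1, which conjugates bilirubin, held 664, 764, 775 and 750.2 CPM in CV and 213, 412, 430.4 and 368 CPM in EM, with replicate 1 lowest and no overlap (-1.05 ± 0.17, adjusted p = 0.000153). Sult2a1, which sulfates bile acids and steroids, held 1685, 1620.4, 1288 and 1621 CPM in CV, and its EM libraries parted into 89.8 CPM in replicate 1 and 445 to 559 CPM in the others, against 12.0 to 25.8 CPM in EV (-1.94 ± 0.39, adjusted p = 0.00157). Sult2a5 (-2.35 ± 0.19) and Sult2a7 (-5.20 ± 0.91) fell too, with the same doubt about reads shared between copies. Cyp2a5 (-2.21), Cyp2c37 (-1.81), Cyp2c54 (-2.53), Ces2a (-1.31) and Por, the electron donor of the P450 enzymes (-0.99), were also lower. The 3 that rose were the carboxylesterase Ces2c (1.46 ± 0.26), the epoxide hydrolase Ephx1 (0.91 ± 0.27) and the glutathione transferase Gsta1 (2.80 ± 0.82, whose call was lost without EM replicate 4, adjusted p = 0.0511). With library totals 16 of the list fell and 9 rose.

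Cyp2b10 headed the genes that EE had moved and that stood at the vehicle level in EM. By the size of the EE change, the first 10 of the 18 were Cyp2b10, Kcne3, Zfand4, Enpp2, Ccl19, C2cd2, Srd5a1, D3Ertd751e, Iqcb1 and Plk3. In 9 of the 10, all but the potassium channel subunit gene Kcne3, EE alone had lowered the gene and the EM mean lay between those of EV and CV. Kcne3 held 1.21, 1.30, 1.17 and 1.89 CPM in CV, 1.98, 1.04, 1.02 and 1.13 CPM in EM and 6.82, 3.01, 3.38 and 3.73 CPM in EV, with EM replicate 1 the highest of its group. Enpp2, which encodes the lysophospholipase autotaxin, held 15.7, 25.4, 33.1 and 27.6 CPM in CV and 13.3, 15.4, 28.8 and 19.5 CPM in EM (-0.40, 95% interval -0.97 to 0.17), against 6.91 to 10.99 CPM in EV. The chemokine Ccl19 (-0.23, -0.84 to 0.38) and the stress-responsive kinase Plk3 (-0.47, -0.93 to -0.01) overlapped with vehicle in the same way. Srd5a1, a steroid 5-alpha-reductase, held 15.8, 22.5, 14.7 and 23.8 CPM in CV and 11.4, 12.7, 14.2 and 16.3 CPM in EM (-0.49, -0.97 to -0.02).

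The vehicle level here means within 2-fold, not equality. For Zfand4 (10.7, 9.40, 9.14 and 11.3 CPM in CV and 6.73, 5.18, 8.93 and 7.73 CPM in EM) and D3Ertd751e (4.27, 4.13, 3.57 and 4.36 and 3.26, 2.62, 3.37 and 3.38 CPM) every EM library lay under every CV library although neither was called (adjusted p = 0.0956 and 0.157). C2cd2 (-0.51) and Zfand4 (-0.50) were called lower when only the CV and EM libraries were fitted (adjusted p = 0.0293 and 0.0466), and C2cd2 and Plk3 without EM replicate 3 (adjusted p = 0.0232 and 0.035). In the 8 fits that each left out 1 library, Cyp2b10, D3Ertd751e and, outside the first 10, Col5a3, Lrp4 and Cyp3a59 stayed at the vehicle level in all 8. The other 13 of the 18 genes did not: Zfand4 stayed there in 2 fits, Kcne3, Enpp2 and Srd5a1 in 4, C2cd2 and Plk3 in 5, and Ccl19 and Iqcb1 in 6. Cyp3a16, the gene called in the opposite direction to EV, held 1.35, 4.20, 2.06 and 1.30 CPM in CV, 2.88, 4.21, 4.71 and 5.64 CPM in EM and 1.07, 0.778, 1.27 and 0.473 CPM in EV. EM and CV overlapped, and the call (0.97 ± 0.37, adjusted p = 0.0468) was lost with only the CV and EM libraries fitted (adjusted p = 0.0798) and in 6 of the 8 fits without 1 library. In animals with human CYP3A genes, reads of mouse Cyp3a genes can be shared, and these values are uncertain. The human-format entry ENSG00000160868, with means of 1242, 1900 and 529 CPM in CV, EM and EV, ranked the groups alike. Whether its reads reach Cyp3a16 was not tested. Col5a3, Lrp4 and Cyp3a59 were picked after their values were seen.

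**Figure D3:**
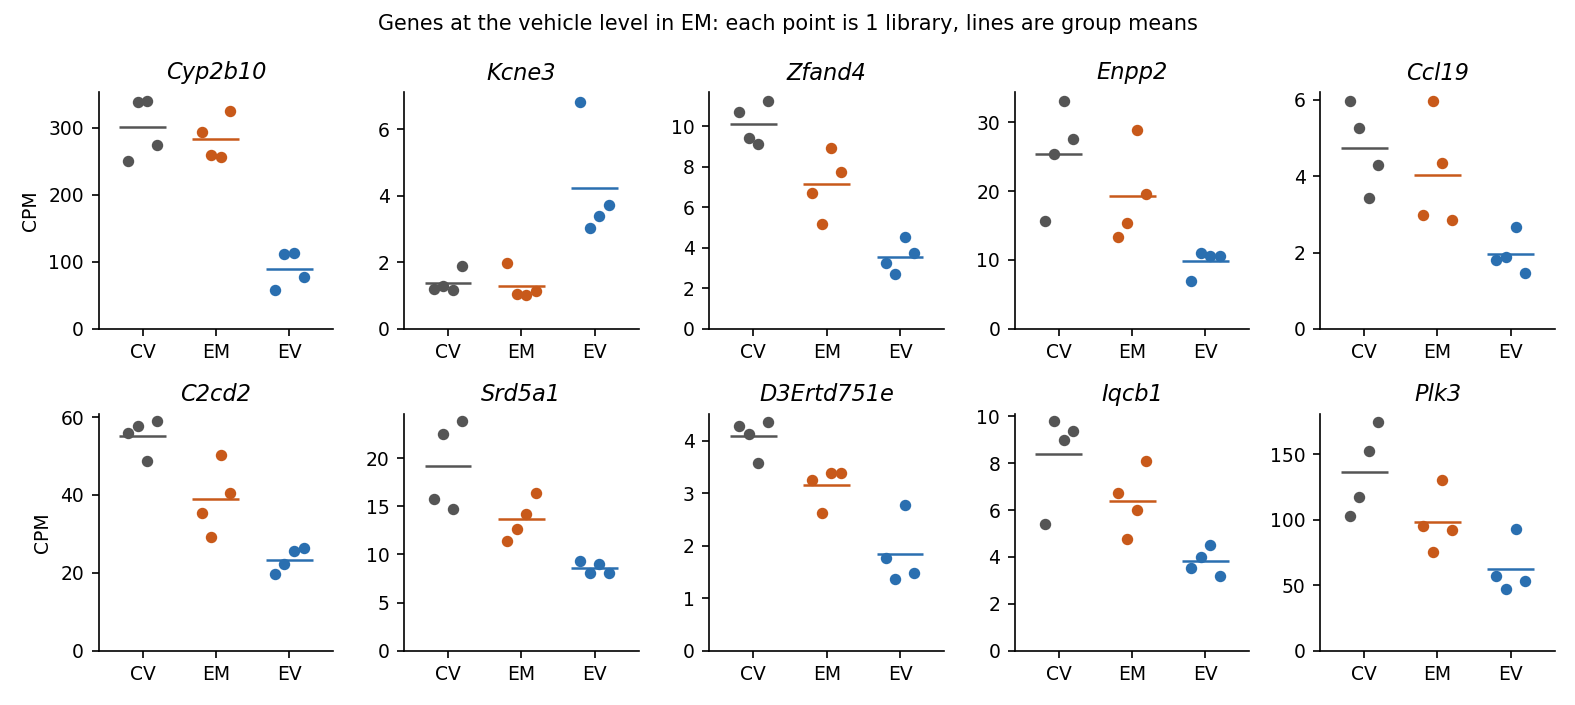
CPM of the 10 genes at the vehicle level in EM with the largest EE change, for each CV, EM and EV library (points) with the group mean (line). The EM points of Cyp2b10 (256 to 324 CPM) fall within the CV range of 249.9 to 339 CPM, whereas the EM means of Zfand4, C2cd2 and Srd5a1 lie between those of CV and EV.

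At the other extreme stood genes almost silent with vehicle and abundant in EM. The 8 largest rises and 8 largest falls were taken among called genes whose log2 CPM averaged 1 or more over CV and EM and whose groups did not overlap. Trex2, which encodes a DNA exonuclease, was at 0 in the 4 CV libraries and at 42.1, 33.2, 32.6 and 36.8 CPM in EM. No fold is given for it, since the estimated counts look rescaled by length and the value of 1 read is not known. The epithelial keratins Krt4 and Krt79 followed. Krt4 held 0, 0.229, 0 and 0.0589 CPM in CV and 281, 197, 141 and 188 CPM in EM (11.38 ± 0.91, adjusted p = 2.34e-10), and Krt79 0.214, 0.229, 0 and 0.0589 CPM and 76.7, 87.8, 85.8 and 98.7 CPM (9.42 ± 0.53, adjusted p = 3.08e-11). Their CV levels rest on 4 and 7 estimated counts in all, so the size of these folds is approximate. Ly6d, a membrane-anchored surface protein gene, went from 8.26, 4.51, 0.619 and 3.30 CPM to 835, 556, 381 and 361 CPM (7.003 ± 0.84). The phosphate carrier Slc34a2 (8.38 ± 0.98), Gm12248 (7.11 ± 0.38), the trefoil factor Tff3 (7.02 ± 1.21) and Rgs7bp, a binding partner of G protein regulators (6.997 ± 0.47), complete the 8 largest rises. Slc34a2 was far higher in EM replicate 2 (245 CPM) than in the others (47.2 to 54.6 CPM). The EM means of all 8 were below their EV means, for example 202 against 406 CPM for Krt4 and 36.2 against 61.9 CPM for Trex2. The simple-epithelial keratins of hepatocytes moved little: Krt18 rose (0.59 ± 0.13) and Krt8 was at the vehicle level (0.27, 95% interval -0.06 to 0.61), though called higher without CV replicate 2 (adjusted p = 0.0135) and with library totals (0.65, adjusted p = 0.00279).

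Among the largest falls were genes of steroid, drug and iron metabolism. Hsd17b6, a steroid dehydrogenase, held 171, 406, 341 and 225 CPM in CV and 0.694, 2.13, 3.37 and 2.42 CPM in EM (-7.03 ± 0.42, adjusted p = 2.62e-07). Rgs16, a G protein regulator, went from 253, 233, 112 and 218 CPM to 1.82, 2.20, 6.31 and 1.56 CPM (-6.07 ± 0.45). The hepcidin copy Hamp2 (-5.18 ± 0.81), Sult2a7, Cyp2b13, and the organic anion carriers Slc22a26 (-4.58 ± 0.29) and Slc22a7 (-4.37 ± 0.47) also fell. The EM mean of each of these genes was above its EV mean, by the widest margin in CPM for Hamp2 (21.2 against 3.49 CPM), and no EM value reached any CV value.

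**Figure D4:**
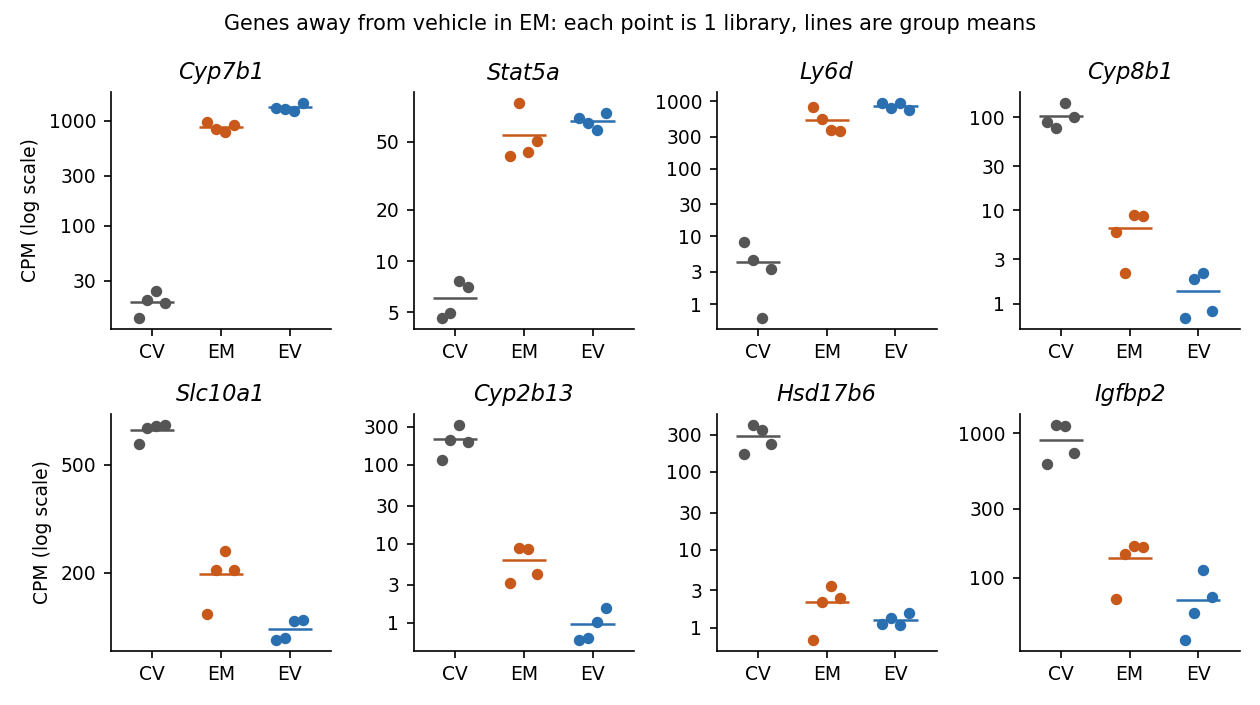
CPM on a log scale of 8 genes away from vehicle in EM, for each CV, EM and EV library (points) with the group mean (line). In every panel the EM points lie apart from CV; Cyp8b1 and Cyp2b13 lie above their EV points, and EM replicate 1, the leftmost EM point, is the lowest EM library for Slc10a1, Cyp2b13, Hsd17b6 and Igfbp2.

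Several of the largest falls are genes expressed more in female than in male liver, a bias set largely by the pattern of growth hormone secretion acting through Stat5b. Of 22 female-predominant genes, 15 fell, 2 rose and 5 were undecided (median -1.92). Cux2, a repressor characteristic of female liver, went from 32.9, 21.3, 38.5 and 54.6 CPM to 1.87, 4.15, 1.73 and 0.537 CPM (-4.17 ± 0.56, adjusted p = 9.47e-05). Hao2 (-6.25), Fmo2 (-3.48), Acot3 (-4.37) and Acot4 (-1.90) fell. Prom1 (1.41) and Cyp3a16, with the doubt about shared reads given above, were the members that rose. A1bg was undecided, with CV libraries that ran from 31.3 to 518 CPM. It was called lower without EM replicate 2 (adjusted p = 0.0363). Of 12 male-predominant genes, 7 rose, including the urinary protein gene Mup20 (3.38 ± 0.33) and Cyp4a12a (5.92 ± 0.97, from 0.127 ± 0.133 CPM and thus approximate), and 2 fell, Mup3 (-3.00 ± 0.54) and Ugt2b1 (-0.92 ± 0.16). Members of the Mup and Cyp4a12 families share reads with near-identical copies. In the growth hormone and IGF axis, Stat5a rose from 4.63, 4.97, 7.63 and 7.07 CPM to 41.4, 84.8, 43.4 and 50.7 CPM (3.17 ± 0.24, adjusted p = 5.11e-07) and Stat5b more modestly (0.74 ± 0.13). The carrier genes Igfbp2 (901 ± 271 to 137 ± 44.9 CPM; -2.71 ± 0.35), Igfbp3 (-1.59 ± 0.26) and Igfbp4 (-1.25 ± 0.11) fell, Igfbp1 rose (1.75 ± 0.33), and the receptor Ghr was at the vehicle level (-0.23, 95% interval -0.59 to 0.12). Igf1 fell (-0.56 ± 0.09), a call lost with library totals (-0.19, adjusted p = 0.0933). Of 15 genes of the axis 4 rose and 5 fell, against 20.7% and 20% of all genes. With library totals 6 of them rose and 4 fell, where 5979 of all 12918 genes rose and 1000 fell.

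Genes of steroid metabolism followed Hsd17b6 in part: 7 of 14 fell and 2 rose. Hsd11b1, which regenerates active glucocorticoid, fell from 592 ± 72.3 to 133 ± 27.9 CPM (-2.16 ± 0.15). Hsd17b2, which inactivates estradiol and testosterone, rose from 127 ± 16.5 to 363 ± 40.4 CPM (1.52 ± 0.11, adjusted p = 2.71e-07), and Cyp21a1 rose from near 0 (5.47 ± 0.84). Cyp1a2, which hydroxylates estrogens, fell (-1.75 ± 0.27).

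The cholesterol list was the least decided of the metabolic lists, with 5 falls, 1 rise, 8 genes at the vehicle level and 10 undecided of 24 (median -0.47). Over all genes 20% fell, 20.7% rose and 14.2% were undecided, so the share of falls was near that of all genes. For EV over CV, 19 of the 24 were called lower (median -1.16), against 24.9% of all genes. Fdps, a prenyl synthase, held 534, 691, 409 and 787 CPM in CV and 447, 485, 636 and 598 CPM in EM, overlapping throughout (-0.16, 95% interval -0.99 to 0.67). Lss, the lanosterol synthase (-0.25, -0.88 to 0.38), and Sqle, the squalene epoxidase (-0.24, -0.79 to 0.31), were also within 2-fold. Tm7sf2, a sterol reductase, stayed low (-2.28 ± 0.27, adjusted p = 1.93e-05), as did Ebp (-0.91 ± 0.16) and Stard4 (-1.11 ± 0.21). The single rise, the synthase Hmgcs1 (0.74 ± 0.27, adjusted p = 0.039), was lost in 6 of the 8 fits without 1 library, among them the fit without EM replicate 1 (adjusted p = 0.052). With library totals 4 fell and 2 rose.

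Fatty acid and triglyceride synthesis stayed lower, with 13 of 22 genes falling and none rising (median -0.85). With library totals 8 fell and 1 rose. Scd1, the stearoyl-CoA desaturase, went from 1522, 927, 1058 and 650.1 CPM to 28.7, 19.5, 104 and 105 CPM (-4.01 ± 0.51, adjusted p = 8.95e-05). The EM libraries differed among themselves by several fold, and none came within reach of the CV libraries. The desaturases Fads1 (-1.68 ± 0.21) and Fads2 (-1.73 ± 0.23), the acyltransferase Dgat2 (-1.25 ± 0.13) and the regulator Srebf1 (-1.15 ± 0.24) fell, while Acly (0.05, 95% interval -0.52 to 0.62) and Gpam (0.11, -0.16 to 0.38) were at the vehicle level, Gpam being called higher with library totals (0.48). Of 26 fatty acid oxidation genes, 14 were at the vehicle level, against 45.2% of all genes, among them Acadm (-0.02, -0.40 to 0.35) and Hadha (-0.15, -0.42 to 0.13). The list had 6 falls and 3 rises, against 20% and 20.7% of all genes. The peroxisomal enzyme Ehhadh rose from 128 ± 38.4 to 397 ± 32.6 CPM (1.64 ± 0.29) and the kinase Pdk4, which restrains glucose oxidation, also rose (2.40 ± 0.60). With library totals this list had 9 rises, 1 fall and a median of 0.24 in place of -0.14. Under that scaling 5979 of all 12918 genes rose, 1000 fell and the median of all genes was 0.37.

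Glucose and amino acid genes showed partial losses. Of 17 glucose, glycogen and fructose genes, 10 fell and 6 were at the vehicle level (9 fell and 2 rose with library totals). The glucose carrier Slc2a2 (-1.62 ± 0.29), the glucose-6-phosphate carrier Slc37a4 (-1.33 ± 0.14) and the glycogen synthase Gys2 (-1.20 ± 0.21) fell. The gluconeogenic enzymes Pck1 (-0.18, 95% interval -0.44 to 0.08), G6pc (0.19, -0.36 to 0.73) and Fbp1 (-0.25, -0.51 to 0.01) were at the vehicle level, although Fbp1 was called lower without EM replicate 2 (-0.36, adjusted p = 0.0309). In amino acid catabolism and the urea cycle, 20 of 28 genes fell and 2 rose (median -1.10). Hpd, of tyrosine breakdown, went from 2641, 3263, 3082 and 2818 CPM to 568.7, 697, 857 and 916 CPM (-1.96 ± 0.16, adjusted p = 8.22e-07), without overlap. Gnmt, of methionine metabolism (-1.93 ± 0.19), Otc (-1.47 ± 0.14) and Cps1 (-1.04 ± 0.21), of the urea cycle, fell, whereas the transaminase Tat (0.67 ± 0.21) and Uroc1 (0.37 ± 0.09) rose, Tat losing its call without EM replicate 2 (adjusted p = 0.0733).

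Genes for secreted plasma proteins had the largest share of lowered genes among the 35 lists: 25 of 26 fell and 1 rose, with a median of -1.15. Apoa1, the main protein of high-density lipoprotein, went from 16445, 13851, 16466 and 12486 CPM to 2349, 2427, 3484 and 3664 CPM (-2.31 ± 0.20, adjusted p = 1.46e-06), with no overlap. Serpina6, the corticosteroid-binding globulin, showed the largest fall of the list, from 403 ± 64.1 to 46.6 ± 14.8 CPM (-3.11 ± 0.22), and coagulation factor XI (F11) was the single rise (1.201 ± 0.18). The falls of Apob (-0.23) and Trf (-0.31) turned positive with library totals (0.14 and 0.07, neither called), and Trf lost its call in 4 of the 8 fits without 1 library. Alb fell (-0.89 ± 0.17, adjusted p = 0.000643). Among hepatocyte markers 9 of 10 fell.

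Genes of both zones of the liver lobule were lowered. Of 15 genes of the pericentral zone, 13 fell and none rose (median -1.08). With library totals 1 rose and 10 fell. The P450 enzyme Cyp2e1 went from 5303, 5632, 7668 and 5575 CPM to 606, 750.6, 1234 and 1305 CPM (-2.63 ± 0.26, adjusted p = 5.2e-06), and Rgn (-1.99 ± 0.23) and the glutamine synthetase Glul (-0.77 ± 0.14) fell too. Of 12 periportal genes, 7 fell and 1 rose (median -0.76): Pigr, the immunoglobulin receptor (-2.98 ± 0.24), and Aldh1b1 (-2.20 ± 0.26) were low, while Cyp2f2 (-0.14, 95% interval -0.67 to 0.39) and Pck1 were at the vehicle level. Among junction genes, the gap junction genes Gjb1 (-0.72 ± 0.08) and Gjb2 (-0.98 ± 0.19) and the tight junction gene Ocln (-0.88 ± 0.20) fell and Cldn2 rose (1.02 ± 0.17). Of 16 junction genes 5 fell, 2 rose and 7 were at the vehicle level, against 20%, 20.7% and 45.2% of all genes. With library totals 6 junction genes rose and 4 fell, against 2 and 5 here.

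Stress programs stayed raised. Of 18 endoplasmic reticulum stress genes, 12 rose and none fell (median 0.84, against 0.72 for EV over CV). The chaperone Hspa5 held 943, 909, 504 and 604 CPM in CV and 2345, 1633, 1633 and 1390.1 CPM in EM, with replicate 1 highest and no overlap (1.24 ± 0.22, adjusted p = 0.000365). Hsp90b1 (1.09 ± 0.15), Calr (0.78 ± 0.15) and Sdf2l1 (1.56 ± 0.36) rose, while Atf4 (-0.16, 95% interval -0.40 to 0.08) and Xbp1 (0.06, -0.14 to 0.27) were at the vehicle level, Xbp1 being called higher with library totals (0.43, adjusted p = 0.0022). Of 11 oxidative stress genes, 7 rose, such as G6pdx (1.88 ± 0.17), Srxn1 (1.18 ± 0.19) and Hmox1 (1.45 ± 0.34). Nqo1 (0.02, -0.47 to 0.52), Gclc (0.20, -0.21 to 0.61) and Gclm (-0.01, -0.30 to 0.28), of the same list, were at the vehicle level. Library totals, however, called Gclc higher (0.58, adjusted p = 0.0187) and turned Gclm from below to above 0 (0.36, adjusted p = 0.033).

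Cell cycle genes were raised in every EM library, most in replicate 1. Of 33 proliferation genes, 28 rose, 1 (Tk1, -0.95 ± 0.28) fell, and the median was 3.04. Without EM replicate 1, 25 rose and the median was 2.15. The fall of Tk1, a thymidine kinase, was lost without CV replicate 2 (adjusted p = 0.0507) and with library totals. Top2a, a topoisomerase of dividing cells, held 0.997, 0.306, 0.275 and 0.236 CPM in CV and 22.3, 6.83, 5.95 and 6.18 CPM in EM (4.50 ± 0.53, adjusted p = 1.1e-05). Mki67 (4.05 ± 0.44) and Birc5 (4.01 ± 0.48) rose likewise from under 1 CPM. The cell cycle inhibitor Cdkn1a rose as well, from 15.1, 8.17, 13.9 and 8.08 CPM to 99.7, 137, 60.8 and 80.5 CPM (3.06 ± 0.56, adjusted p = 0.00106), without overlap. In the CM libraries Cdkn1a held 19.1, 113, 54.0 and 10.6 CPM. Cyclin D1 (Ccnd1) was undecided (1.15, 95% interval -0.01 to 2.30, adjusted p = 0.109), and was called higher without CV replicate 3 (adjusted p = 0.0296) and with library totals (adjusted p = 0.0281).

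The circadian clock differed between the groups. Of 18 clock genes, 11 fell and 3 rose, and with library totals 9 fell and 5 rose. The output factor Dbp went from 64.6, 86.9, 113 and 162 CPM to 12.5, 9.03, 16.96 and 9.40 CPM (-3.15 ± 0.86, adjusted p = 0.0146), and Nr1d1 (-2.09 ± 0.36), Tef (-2.21 ± 0.47) and Per3 (-2.63 ± 0.77) fell. Nfil3 (1.97 ± 0.26), Npas2 (2.91 ± 0.80) and Arntl (1.56 ± 0.56) rose, Arntl losing its call in 6 of the 8 fits without 1 library. The sources used here give no hour of tissue collection, and its part in these values was not tested. Among iron genes, hepcidin (Hamp) fell from 5059.7 ± 610.3 to 1837 ± 778 CPM (-1.46 ± 0.39), while the exporter it controls, Slc40a1 (0.68 ± 0.17), and the ferritin chain Fth1 (0.50 ± 0.09) rose. Of 14 iron genes 4 rose and 5 fell (median -0.05), against 20.7% and 20% of all genes, and with library totals 6 rose and 2 fell. Acute phase and complement genes were mostly undecided, 13 of 25 against 14.2% of all genes. Saa1, for one, ran from 273 to 8822 CPM among the CV libraries. In this list 3 genes rose and 3 fell, against 20.7% and 20% of all genes. With library totals 8 rose and 2 fell, where 5979 of all 12918 genes rose and 1000 fell.

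Most immune cell markers were higher in EM. Macrophage markers rose in 15 of 18 cases (median 1.88), and their summed level ran from 416 to 1029 CPM in CV and from 2002 to 3314 CPM in EM. Csf1r, the receptor on which macrophages depend, held 11.1, 27.6, 21.2 and 23.8 CPM in CV and 143, 119.7, 129.5 and 89.1 CPM in EM (2.53 ± 0.24, adjusted p = 3.15e-06). The Kupffer cell gene Clec4f went from 125 ± 21.6 to 432 ± 24.4 CPM (1.79 ± 0.16). Every EM library exceeded every CV library for both, and neither came down to the vehicle range. All 5 neutrophil markers rose, their sum going from 4.95 to 22.2 CPM in CV to 54.2 to 171.8 CPM in EM, and so did all 6 antigen presentation genes (169.7 to 209 CPM in CV, 271 to 519.8 in EM). Of 9 lymphocyte markers 5 rose, or 3 without EM replicate 1, with sums of 7.55 to 15.5 CPM in CV and 29.0 to 54.1 CPM in EM.

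Duct cell markers gave a mixed answer. Of 6 measured, Spp1 (36.8, 51.9, 43.5 and 43.5 CPM in CV and 178, 120.3, 77.3 and 155 CPM in EM; 1.59 ± 0.21), Sox9 (3.18 ± 0.47) and Prom1 rose, whereas the defining markers Krt19 (1.24 ± 0.967 and 0.945 ± 0.389 CPM; -0.39, 95% interval -1.55 to 0.78) and Epcam (1.81 ± 0.340 and 1.41 ± 0.225 CPM; -0.35, -0.86 to 0.16) were not called and stayed under 3 CPM in the CV and EM libraries. The mean of Prom1 was 7.01 CPM in CV, 18.7 CPM in EM, 21.5 CPM in EV and 22.1 CPM in CM. Stellate and fibroblast markers gave 4 rises, led by Col1a1 (1.73 ± 0.20), and 2 falls of 14, against 20.7% and 20% of all genes. Their sums were 398 to 672 CPM in CV and 289 to 405 CPM in EM, with 4 rises and 1 fall with library totals. Endothelial markers rose in 4 of 15 cases and were at the vehicle level in 7, against 20.7% and 45.2% of all genes. With library totals 11 rose, where 5979 of 12918 genes were higher. The sinusoidal gene Clec4g was at the vehicle level (0.07, 95% interval -0.28 to 0.43) but called higher with library totals (0.45, adjusted p = 0.0416). Red cell genes rose in 5 of 6 cases (sums of 988 to 1972 CPM in CV and 1807 to 4018 CPM in EM). The CV and EM values of Hbb-bt and Hba-a1, which were among those that rose, overlapped. The remaining gene, Klf1, fell from a mean of 3.93 CPM in CV to 0.854 CPM in EM (-2.20 ± 0.40, adjusted p = 0.000605). Of 2 pancreatic acinar genes, Cela2a rose (2.51 ± 0.70) and Cela1 was at the vehicle level. None of the markers measured was at 0 throughout either group, and the part of a shifted cell mixture in the gene lists above was not tested.

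**Figure D5:**
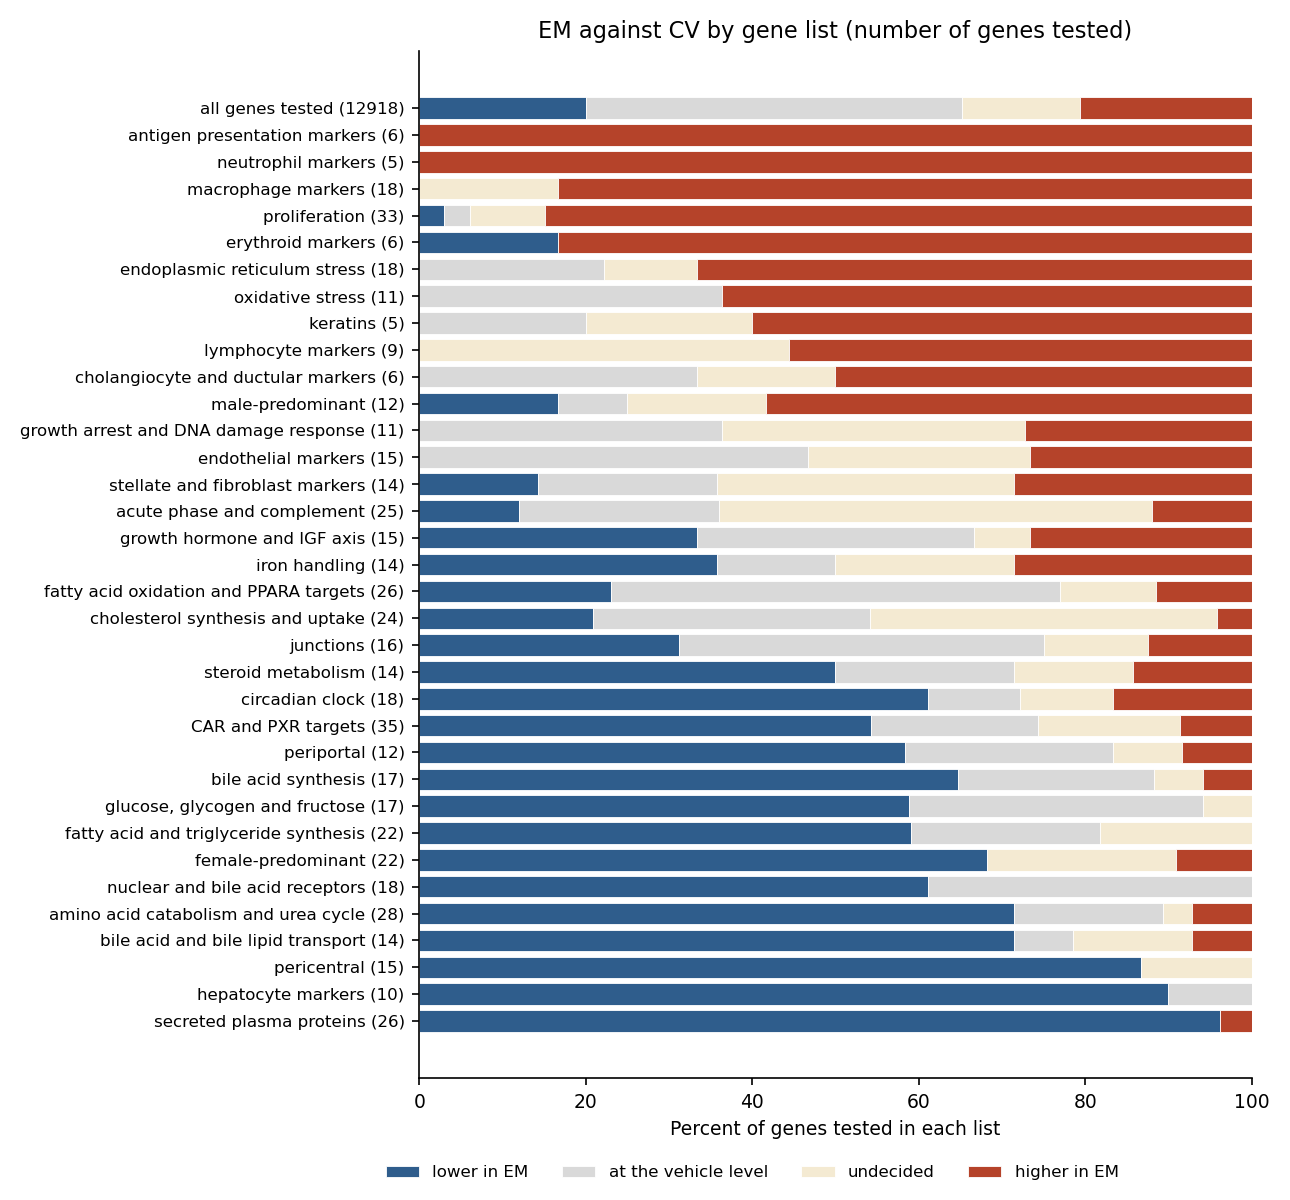
Share of the genes tested in each list of at least 5 genes that were lower in EM than in CV, at the vehicle level, undecided or higher, with all 12918 genes in the top bar. Immune cell markers and proliferation are mostly higher, and secreted proteins (25 of 26), hepatocyte markers and pericentral genes mostly lower, against 20.7% higher and 20% lower over all genes.

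How far each EM library stood from vehicle differed within the group. Over the 26 lists with a median change of at least 0.5 on the log2 scale, replicate 1 was the EM library farthest from CV in the direction of the list in 20, replicate 2 in 3, replicate 3 in 2 and replicate 4 in 1. For secreted plasma proteins the per-library medians were -1.39, -1.18, -1.08 and -1.11 for replicates 1 to 4, and for proliferation 2.92, 1.43, 1.54 and 1.43 (log2 with a pseudocount of 0.5 CPM). Of 342 list genes called in EM against CV, 17 lost their call without this library and 5 others gained one.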

How the data were processed

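Liver RNA was measured by poly(A) RNA-seq. Per the submitters' processing notes GRCm39, STAR and Salmon were used, without versions, and the sources used here give no annotation or strand. The authors deposited 1 table of whole-number counts for 13006 genes, with totals of 14115384 to 21473227 per library. The smallest values above 0 fell with transcript length, from a median of 52 under 500 bases to 1 over 4000 bases, so the deposited counts look rescaled by length and are called estimated counts. Symbols were found for 12692 identifiers.

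Genes passing edgeR's filterByExpr (12918) were tested with edgeR 4.0.16 in R 4.3.3 (TMM factors, robust quasi-likelihood, 1 coefficient per group, 16 libraries, 12 residual degrees of freedom, Benjamini-Hochberg). Intervals are 95% Wald intervals. CPM values use TMM-scaled totals. The median standard error was 0.17 on the log2 scale. Tests were checked on simulated data. DESeq2 1.42.0 and limma 3.58.1 gave alternatives. Replicates shared at most 3.24% of values.

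The rule for naming genes took 8 rises and 8 falls by size, the 10 vehicle-level genes that EE had moved most, the 3 lowest p-values of each list, a fixed set and the human-format entries. Other named genes were chosen after their values were seen. Members and lists were chosen with earlier results of these data known. Some genes that this rule names are not reported here.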

Additional observations from a re-analysis of the deposited data

Results flagged for a closer look

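In groups of 4 libraries, 1 library lay far from the other 3, by Dixon's criterion, in 26 of the 390 sets of 4 values examined (195 named genes in CV and EM). Chance flags about 1 in 20 such sets. The values are in CPM. EM replicate 1 was the highest of its group for Birc5 at 20.7 (4.64 to 5.8 in the others), Kcne3 at 1.98 (1.02 to 1.13 in the others), Saa1 at 3371 (469 to 770.1 in the others) and Top2a at 22.3 (5.95 to 6.83 in the others). EM replicate 2 was the highest of its group for Acot3 at 6.71 (2.04 to 2.71 in the others), Slc34a2 at 245 (47.2 to 54.6 in the others) and Tat at 2236 (1637 to 1734 in the others). EM replicate 3 was the highest of its group for Rgs16 at 6.31 (1.56 to 2.2 in the others). CV replicate 1 was the highest of its group for Slc22a26 at 200 (148 to 156 in the others), Tff3 at 1.92 (0 to 0.236 in the others) and Top2a at 0.997 (0.236 to 0.306 in the others). CV replicate 2 was the highest of its group for Baat at 231 (184 to 188 in the others) and Fth1 at 2774 (2259 to 2313 in the others). CV replicate 3 was the highest of its group for Cyp2e1 at 7668 (5303 to 5632 in the others). CV replicate 4 was the highest of its group for Tef at 85.4 (56.5 to 57.9 in the others). EM replicate 1 was the lowest of its group for Sqle at 80.2 (105 to 109 in the others) and Uroc1 at 289 (357 to 369 in the others). EM replicate 2 was the lowest of its group for D3Ertd751e at 2.62 (3.26 to 3.38 in the others). CV replicate 1 was the lowest of its group for Birc5 at 0.356 (0.611 to 0.648 in the others), Ebp at 258 (279 to 283 in the others), Ephx1 at 152 (333 to 356 in the others), Slc10a1 at 597 (685 to 702 in the others), Srxn1 at 14.9 (22.8 to 23.9 in the others) and Ugt2b35 at 42.5 (59.4 to 61.9 in the others). CV replicate 2 was the lowest of its group for Atf4 at 90.6 (103 to 106 in the others). CV replicate 3 was the lowest of its group for Sult2a1 at 1288 (1620.4 to 1685 in the others).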

How the results depend on the processing

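Over the 8 fits that each left out 1 library, the genes called ran from 4543 to 4972, those higher from 2346 to 2571, those lower from 2197 to 2459, those changed at least 2-fold from 1850 to 2105 and those at the vehicle level from 5817 to 6144. Library totals gave 5979 higher and 1000 lower, and turned Apob to 0.14, Gclm to 0.36, Trf to 0.07, Ftl1 to 0.10 and Ugt2b36 to 0.36 on the log2 scale. Ftl1 also lost its call in 6 of the 8 fits without 1 library. A margin of 1.5-fold left 3842 genes at the vehicle level. RLE factors, no count filter, a filter of 1 CPM, only the CV and EM libraries and DESeq2 kept all of these counts within 1.5 times. No label says that replicate numbers pair the samples. Correlations of deviations between same-numbered CV and EM libraries were 0.0064, -0.028, 0.054 and -0.015, within the range of -0.096 to 0.070 of the other pairs. These values do not settle whether samples were paired. With the replicate number as a block 5156 genes were called, 2632 higher and 2524 lower. C2cd2, Plk3 and Zfand4 were then called lower (-0.54, -0.48 and -0.53), and Atp8b1 lost its call. No EM library correlated best with the CV library of its own number. The undecided genes had a median level of 2.61 CPM and a median standard error of 0.44 on the log2 scale. Some were abundant, such as ENSG00000160868 with means of 1242 CPM in CV and 1900 CPM in EM. What left genes undecided was not tested.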
